A study of Homo sapiens with 4 samples.

Results

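Secreted or secretion-linked genes of mucosal defence were chosen by symbol, 7 in all, and were matched to 7 of the 60683 gene identifiers in the tables: the antiproteases SLPI and PI3, the related WFDC2, and LCN2, DEFB1, PIGR and LYZ. They were measured by polyA RNA sequencing in HCT116, an established human colorectal carcinoma line. Cells stably carrying a pSin lentivirus that encodes the whole forkhead factor FOXD2 gave 2 libraries, and cells carrying the empty pSin-Pur-MCS-Puro vector gave 2. Both groups were transduced and kept in puromycin, and the labels do not say whether the libraries of a group came from separate cultures or transductions. Each group is a transduced population of 1 line, so the contrast is between lentiviral expression of the factor and the vector.

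Epithelia of gut, airway and skin release a small set of proteins that hold back microbes and the proteases of inflammation. SLPI and PI3 (elafin) carry the WAP four-disulfide core and block neutrophil elastase and related serine proteases, WFDC2 (HE4) shares that fold, and the 3 genes lie in the WFDC cluster of chromosome 20. LCN2 (lipocalin 2) binds the iron-carrying siderophores of bacteria, LYZ cleaves the bacterial cell wall, DEFB1 is a constitutive epithelial defensin, and PIGR carries polymeric IgA across the epithelium and supplies its secretory component. LCN2 is a well-known target of NF-kB, of its cofactor NFKBIZ and of C/EBP factors, and PIGR is known to answer interferon, TNF and IL-17 in colon cells.

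The window of 250 bases before the RefSeq start is shown for LCN2 and PIGR, members whose reads lay mainly in 1 group, on the strand of the gene (RefSeq, GRCh38.p14; LCN2 at chr9:128149203-128149452, plus strand; PIGR at chr1:206946467-206946716, minus strand). Of the 7 genes, 3 had such a window in the sequence table (LCN2, PIGR and WFDC2). The LCN2 window lies inside the gene as the GENCODE 29 annotation places it (from 128149071). Its distances therefore refer to the RefSeq start only. Capitals mark every match to the forkhead letters (GTAAACA, with the variants ATAAACA, then also GTAAATA, and finally ATAAATA), to an NF-kB motif (GGGA, any 4 bases, then CC), to a C/EBP motif (TTGC, any 2 bases, then AA), to an AP-1 motif (TGACTCA, which reads TGAGTCA on the other strand) or to an interferon response motif (GAAA, any 2 bases, then GAAA), searched on both strands.
LCN2: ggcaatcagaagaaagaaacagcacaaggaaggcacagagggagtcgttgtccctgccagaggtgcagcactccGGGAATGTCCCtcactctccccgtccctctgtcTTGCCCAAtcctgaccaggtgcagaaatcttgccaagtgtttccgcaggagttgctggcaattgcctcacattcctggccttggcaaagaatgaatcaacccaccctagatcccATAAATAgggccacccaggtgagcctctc
PIGR: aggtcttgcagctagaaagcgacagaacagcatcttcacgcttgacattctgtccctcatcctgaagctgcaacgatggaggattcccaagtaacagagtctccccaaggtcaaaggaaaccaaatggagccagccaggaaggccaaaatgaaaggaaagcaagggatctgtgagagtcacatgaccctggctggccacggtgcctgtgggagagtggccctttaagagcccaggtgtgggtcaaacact
The LCN2 window held the NF-kB motif as an overlapping pair, 1 match on each strand, from 176 to 166 bases before the start. It also held the C/EBP motif from 143 to 136 and ATAAATA from 29 to 23 bases before the start, the last in the stretch where TATA-type elements commonly lie. Of the 35116 RefSeq promoters, each cut to the same 250 bases before the start, 22.6% held the NF-kB motif, 9.05% the C/EBP motif and 4.6% ATAAATA. The other letters, held by 2.98% (GTAAACA), 3.77% (ATAAACA), 2.39% (GTAAATA), 4.20% (AP-1) and 3.02% (interferon response) of all windows, were not in the LCN2 window, and none of the letters searched was in the windows of PIGR or WFDC2. A match is a description of the letters only, and binding was not measured here.

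The labels were checked first. FOXD2 had 8195 and 7011 counts in the FOXD2 libraries, against 49 and 42 in the empty vector libraries (log2 fold change 7.32, SE 0.10, edgeR adjusted p = 6.5e-50). Libraries held between 14231338 and 15535817 counts. Colon epithelium markers were present only in part: EPCAM averaged 388.1 ± 3.72 CPM (counts scaled to library size) in FOXD2 cells and 350.1 ± 15.1 CPM in empty vector cells (SD, n = 2 each), and KRT8, KRT18 and KRT19 were abundant, whereas VIL1, CDH17, LGALS4 and GPA33 had 0 to 6 counts per library and CDX1 had 0 in all 4. Of the 11 colon markers 6 were tested, of which 4 rose and 1 fell (27.2% and 26.4% over all tested genes). EPCAM and these keratins rose, KRT19 by 1.04 on the log2 scale, and CDX2 fell by 0.51. KRT20, named after its value was seen, had 12 and 10 counts in the FOXD2 libraries, against 15 and 27 in the empty vector libraries. KRT20 did not pass (-0.97, edgeR adjusted p = 0.053). The list summed to 8171 and 7665 CPM in FOXD2 cells and 4328 and 4465 CPM in empty vector cells. The call of EPCAM ended with DESeq2 and with 3 libraries left out singly, both empty vector ones and FOXD2 replicate 1, and that of CDX2 without empty vector replicate 2 and with limma on TPM at either pseudocount. In a bulk sample, a change in how many cells express a gene cannot be told apart from a change in RNA per cell.

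Of the 7 genes, 1 rose (SLPI) and 1 fell (LCN2) in FOXD2 cells, 3 were detected at 0 to 5 reads per library and could not be tested (WFDC2, PIGR and LYZ), and 2 had no read in any library (PI3 and DEFB1). Among the 14470 genes that passed the filter on low counts, 53.5% passed the edgeR threshold of adjusted p 0.05, with 27.2% higher and 26.4% lower, so a call by itself was common. SLPI passed the filter through its FOXD2 counts and LCN2 through its empty vector counts. The members, and the gene lists described below, were chosen with earlier results of these data known. Their counts of calls therefore describe the listed genes only. No member had reads shared with another gene, as the posterior SD of its count in the deposited tables was 0 in every library.

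**Figure D1:**
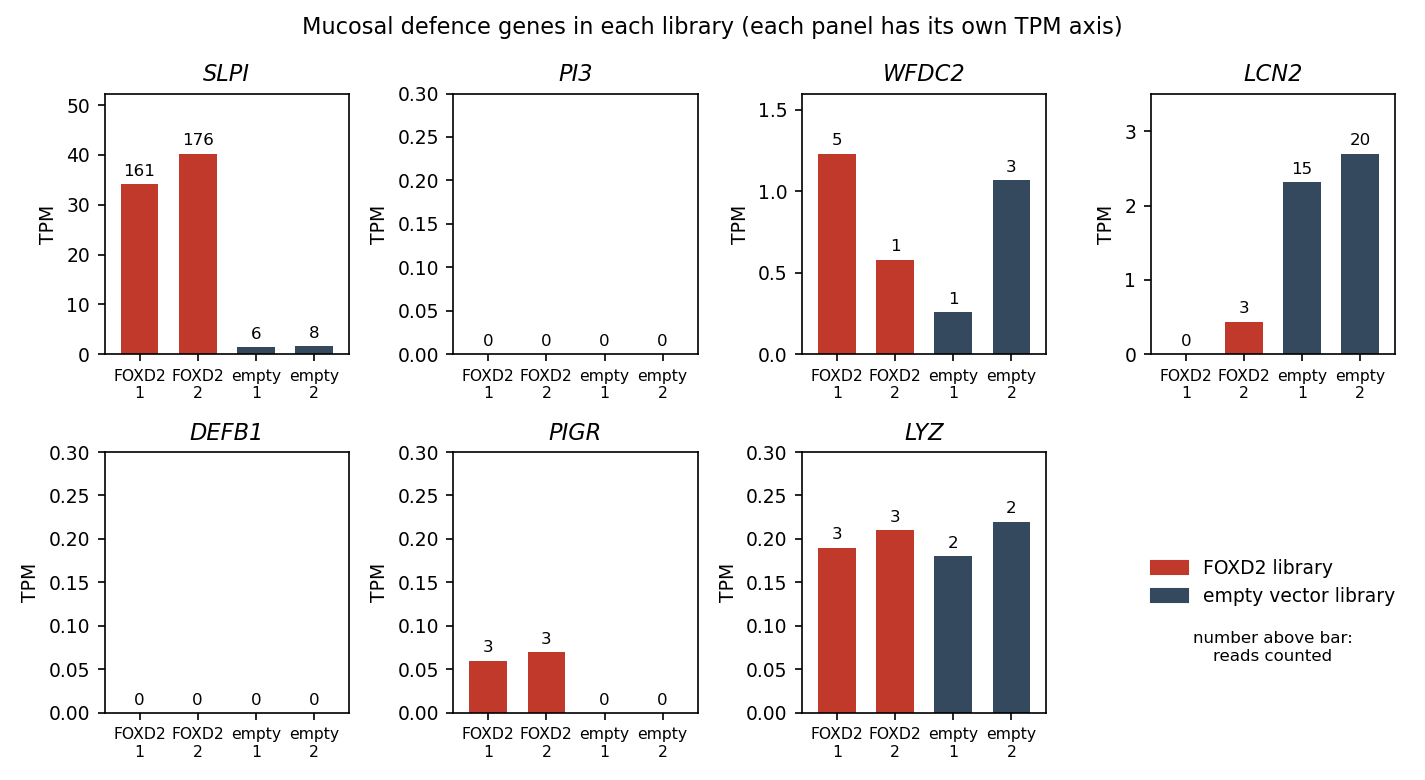
Level per transcript length (TPM, vertical axis, a separate scale per panel) of the 7 genes in each FOXD2 library (red, left) and each empty vector library (dark, right), 1 bar per library with its read count above. SLPI is high in both FOXD2 libraries (161 and 176 reads), LCN2 in both empty vector libraries (15 and 20 reads), and the other genes have 0 to 5 reads.

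SLPI, the secretory leukocyte protease inhibitor (ENSG00000124107; chromosome 20, 45252239 to 45254564, minus strand, GRCh38, GENCODE 29), had 161 and 176 counts in the FOXD2 libraries, against 6 and 8 in the empty vector libraries. The groups were far apart, and the libraries within each group differed little. Its level was 11.2 ± 1.19 CPM in FOXD2 cells and 0.480 ± 0.0713 CPM in empty vector cells (SD, n = 2 each). With edgeR this was 4.51 on the log2 scale (SE 0.28, derived from the test statistic, adjusted p = 4.7e-20). The SE that DESeq2 fitted was larger, 0.50. The ratio of counts between the groups was 23.2, with an exact 95% interval of 13.6 to 42.9 that covers counting error only. Of the 14470 tested genes, 57 had a larger log2 fold change. Per length, SLPI stood at 34.1 and 40.3 TPM in FOXD2 cells, above 73.7% and 77.3% of the tested genes, and at 1.42 and 1.71 TPM in empty vector cells, above 13.6% and 15.9% of them. SLPI was thus among the more abundant tested genes in FOXD2 cells. It passed the filter through its FOXD2 counts, so its low rank among tested genes in empty vector cells was largely set by the filter.

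LCN2, lipocalin 2 (ENSG00000148346; chromosome 9, 128149071 to 128153455, plus strand, GRCh38, GENCODE 29), went the other way. It had 0 and 3 counts in the FOXD2 libraries, against 15 and 20 in the empty vector libraries, without overlap between the groups. Its level was 0.102 ± 0.145 CPM in FOXD2 cells and 1.2 ± 0.178 CPM in empty vector cells (SD, n = 2 each). With edgeR the fitted value was -3.49 on the log2 scale (SE 0.69, derived from the test statistic, adjusted p = 2.8e-05). DESeq2 fitted a larger SE, 1.28. Only 5 tested genes had a lower fitted value, but the estimate rests on few reads. The ratio of counts, FOXD2 over empty vector, was 0.0825 (exact 95% interval 0.0162 to 0.262). Without FOXD2 replicate 2, which held all 3 reads, the fitted value was -7.17, and without FOXD2 replicate 1 it was -2.51 (edgeR adjusted p = 4.4e-05 and 0.0076). On log2(TPM + 1) it was -1.55, on a scale that understates changes of low genes (limma adjusted p = 0.0013).

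The order of the 2 tested genes thus differed between the groups. Per length, LCN2 stood at 0 and 0.44 TPM in FOXD2 cells, far below SLPI, and at 2.32 and 2.7 TPM in empty vector cells, above SLPI in both libraries. Summed over the 7 genes, the level was 35.6 and 41.6 TPM in FOXD2 cells and 4.18 and 5.70 TPM in empty vector cells. SLPI made up 95.8% and 96.9% of that sum in FOXD2 cells and 34.0% and 30.0% in empty vector cells. Without SLPI the sum was 1.48 and 1.3 TPM in FOXD2 cells and 2.76 and 3.99 TPM in empty vector cells, the higher side then being the empty vector libraries.

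The other WAP-domain members did not follow SLPI at a level these libraries could show. WFDC2 (ENSG00000101443; chromosome 20, 45469706 to 45481532, plus strand) had 5 and 1 counts in the FOXD2 libraries, against 1 and 3 in the empty vector libraries. The groups overlapped, and the ratio of counts was 1.44 (exact 95% interval 0.342 to 6.96), so differences within that interval were not detectable. PI3 (ENSG00000124102; chromosome 20, 45174876 to 45176544, plus strand) had 0 counts in all 4 libraries, which allows up to 3 counts per library, or 0.193 to 0.211 CPM of the library totals. Per length, WFDC2 was at 1.23 and 0.58 TPM in FOXD2 cells and at 0.26 and 1.07 TPM in empty vector cells.

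The antimicrobial and IgA transport members were at the edge of detection. LYZ, the lysozyme gene (ENSG00000090382; chromosome 12, 69348341 to 69354234, plus strand), had 3 and 3 counts in the FOXD2 libraries, against 2 and 2 in the empty vector libraries, again a ratio of 1.44 (exact 95% interval 0.342 to 6.96). At 0.19 and 0.21 TPM in FOXD2 cells and 0.18 and 0.22 TPM in empty vector cells, its level per length overlapped between the groups. PIGR, the polymeric immunoglobulin receptor (ENSG00000162896; chromosome 1, 206928518 to 206946466, minus strand), had 3 and 3 counts in the FOXD2 libraries, against 0 and 0 in the empty vector libraries. Each FOXD2 library was no higher than the 3 counts that a count of 0 allows, so no single fold is given. For the summed 6 counts against 0, the exact 95% interval of the ratio began at 1.13, without an upper end. That interval covers counting error only, and with no filter on low counts PIGR did not pass (edgeR adjusted p = 0.13). DEFB1 (ENSG00000164825, chromosome 8) had 0 counts in all 4 libraries, with the same limit as PI3. In that unfiltered fit, WFDC2 and LYZ had adjusted p = 0.81 each.

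In FOXD2 cells, the order per length ran from SLPI (37.2 ± 4.34 TPM) to WFDC2 (0.905 ± 0.460), LCN2 (0.22 ± 0.311), LYZ (0.20 ± 0.0141) and PIGR (0.065 ± 0.00707 TPM; SD, n = 2). In empty vector cells it ran from LCN2 (2.51 ± 0.269 TPM) to SLPI (1.57 ± 0.205), WFDC2 (0.665 ± 0.573) and LYZ (0.20 ± 0.0283 TPM; SD, n = 2), with PIGR at 0. In FOXD2 cells WFDC2 was above LCN2 per length in both libraries, on at most 5 reads, and LCN2 overlapped LYZ and PIGR. By reads the order in FOXD2 replicate 2 was the reverse, with 1 for WFDC2 and 3 for LCN2. In empty vector cells WFDC2 and LYZ differed by less than the SD of WFDC2.

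The position of SLPI was examined because WAP genes lie side by side on chromosome 20. Of 17 protein-coding genes within 250 kb of SLPI, 6 had no read in any library, among them PI3, WFDC12 and the semenogelin genes SEMG1 and SEMG2. Of the 6 that were tested, 4 rose, SLPI included, and 1 (STK4) fell (27.2% and 26.4% over all tested genes). The nearest tested gene on the side of higher coordinates was SDC4, the cell surface proteoglycan syndecan 4, whose gene ends 70.7 kb away. SDC4 averaged 207.1 ± 23.7 CPM in FOXD2 cells and 83.0 ± 0.265 CPM in empty vector cells (SD, n = 2 each; log2 fold change 1.32, SE 0.07, edgeR adjusted p = 1.7e-20). On the other side the nearest tested gene was STK4, a Hippo pathway kinase, 172.3 kb away, at 60.4 ± 4.65 CPM in FOXD2 cells and 73.4 ± 0.395 CPM in empty vector cells (log2 fold change -0.28, SE 0.08, edgeR adjusted p = 0.0016; limma on TPM gave 0.19). None of the 17 other genes with a WAP domain or of the same cluster was tested, and 11 of them had no read, so SLPI was the only such gene, members included, whose change could be measured.

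**Figure D2:**
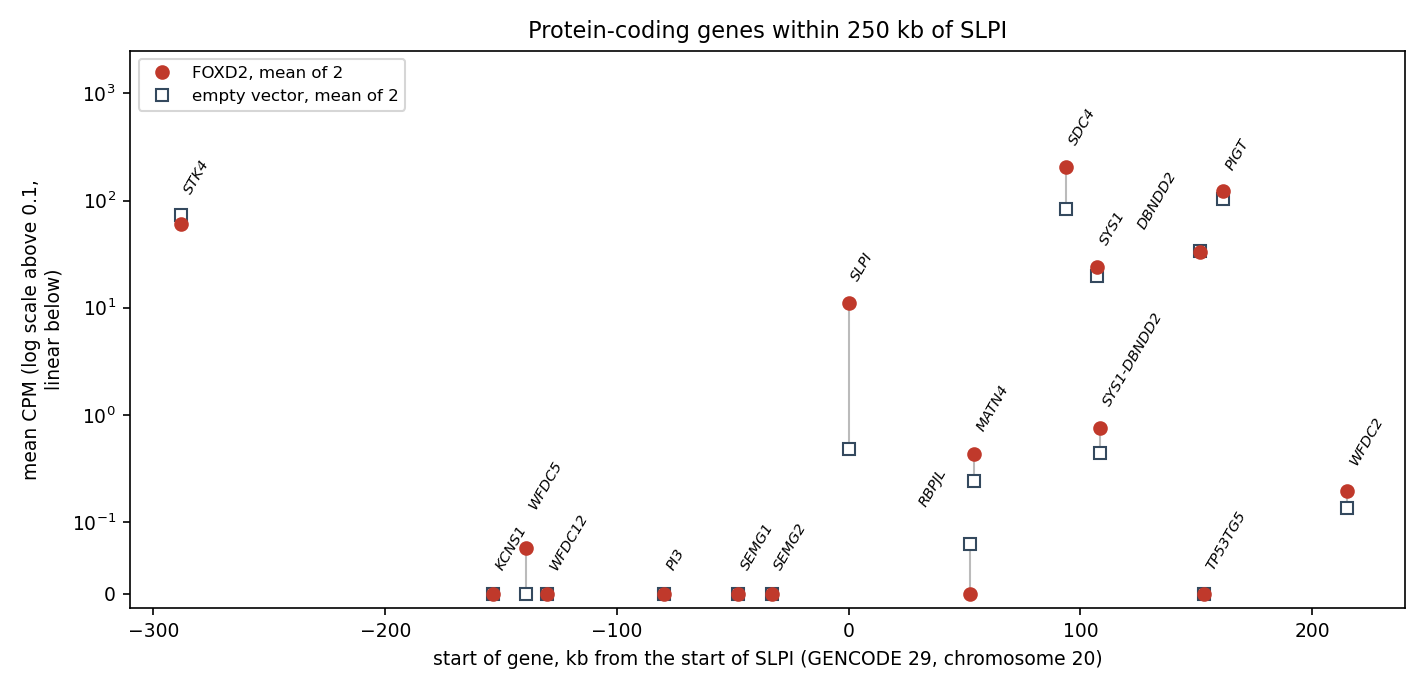
Mean CPM (vertical axis, logarithmic above 0.1 and linear below) of the 17 protein-coding genes within 250 kb of SLPI, against the distance of their start from that of SLPI in kb, in FOXD2 cells (red circles) and empty vector cells (open squares), each a mean of 2 libraries. SLPI and SDC4 are higher in FOXD2 cells, while the WAP gene PI3 and its neighbours SEMG1 and SEMG2 are at 0 in both groups.

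Near the other members the picture varied. The nearest tested gene was not always close, as DNTTIP1 lies 310.4 kb from WFDC2 and ENSG00000284606 lies 1182 kb from DEFB1. PIGR lies 72.1 kb from C1orf116, its nearest tested neighbour on 1 side, which averaged 113.1 ± 3.68 CPM in FOXD2 cells and 3.91 ± 0.372 CPM in empty vector cells (SD, n = 2 each; log2 fold change 4.85, SE 0.11, edgeR adjusted p = 7.9e-40). MAPKAPK2, a kinase 194.2 kb away on the other side of PIGR, rose by 0.30 on the log2 scale (SE 0.07, edgeR adjusted p = 6.0e-04). Next to LCN2, the prostaglandin synthase PTGES2 (log2 fold change -0.14, SE 0.07) and BBLN (-0.18, SE 0.10) did not pass (edgeR adjusted p = 0.11 and 0.15). Both passed as lower without FOXD2 replicate 1 (-0.24 and -0.42, edgeR adjusted p = 0.0037 and 2.3e-04), and PTGES2 also without empty vector replicate 1 (-0.23, 0.042). Beside WFDC2, PIGT, which acts in GPI anchor attachment, rose by 0.23 on the log2 scale (SE 0.07, edgeR adjusted p = 0.0037; 0.10 without empty vector replicate 1 and 0.065 without FOXD2 replicate 1), and DNTTIP1 fell by 0.67 (SE 0.09, adjusted p = 2.0e-09). Near DEFB1, AGPAT5, an acyltransferase gene of phospholipid synthesis, fell by 0.87 (SE 0.07, edgeR adjusted p = 8.8e-17), and ENSG00000284606 on the other side did not pass (0.29, SE 0.31, adjusted p = 0.44). Next to LYZ, the cleavage factor gene CPSF6 fell by 0.37 on the log2 scale (SE 0.06, edgeR adjusted p = 2.4e-06) and YEATS4 had -0.18 (SE 0.10, adjusted p = 0.11; 0.014 without FOXD2 replicate 2).

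The wider set of 44 antimicrobial genes was largely silent. Only 4 were tested and 24 had no read in any library. LYG1, a lysozyme-like gene named after its value was seen, averaged 3.37 ± 0.134 CPM in FOXD2 cells and 2.01 ± 0.595 CPM in empty vector cells (SD, n = 2 each; log2 fold change 0.75, SE 0.30, edgeR adjusted p = 0.029). That call ended with DESeq2 (adjusted p = 0.28) and without empty vector replicate 2, FOXD2 replicate 1 or FOXD2 replicate 2 (0.31, 0.12 and 0.063). The ribonuclease gene RNASE4 (-0.54, adjusted p = 0.064) and the peptide gene ADM (-0.16, adjusted p = 0.095), the other genes named by rule, did not pass with edgeR, and RNASE4 passed only without FOXD2 replicate 1 (-0.83, adjusted p = 0.023). ANG (-0.26, adjusted p = 0.46) was the remaining tested gene.

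Protease inhibitors outside the WAP family were expressed in part, and most of those tested were higher. Of 20 listed, 13 were tested, of which 8 rose and 1 fell (27.2% and 26.4% over all tested genes). Their median log2 fold change was 0.62, against 0.01 over all 14470 tested genes. As the list was chosen with earlier results of these data known, these values describe the listed genes only. The other 7 had at most 5 counts per library, and 3 of them had no read. SERPINB1, an intracellular inhibitor of neutrophil elastase and cathepsin G, had 164.4 and 153.9 CPM in the FOXD2 libraries, against 51.1 and 53.7 CPM in the empty vector libraries (log2 fold change 1.60, SE 0.07, edgeR adjusted p = 1.7e-26). SERPINA3, the secreted antichymotrypsin, had 52 and 89 counts in the FOXD2 libraries, against 5 and 4 in the empty vector libraries (log2 fold change 3.89, SE 0.42, adjusted p = 3.7e-11). TIMP1, which inhibits matrix metalloproteases, averaged 215.4 ± 25.0 CPM in FOXD2 cells and 79.1 ± 0.543 CPM in empty vector cells (log2 fold change 1.45, SE 0.07, adjusted p = 1.6e-21). The broad inhibitor A2M had 34 and 24 counts in the FOXD2 libraries, against 0 and 0 in the empty vector libraries, and was at least 9.31-fold higher when set against 3 counts in each empty vector library. The list median was the same with A2M at that bound. CSTA, a cysteine protease inhibitor, fell to 12 and 8 counts in the FOXD2 libraries, against 101 and 123 in the empty vector libraries (log2 fold change -3.52, SE 0.30, adjusted p = 6.8e-15).

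The leukocyte proteases that SLPI or PI3, not always both, are known to block were scarcely present, whereas some epithelial and lysosomal proteases of the same list were abundant. ELANE, CTSG, CMA1, TPSAB1 and TPSB2 had no read in any library. PRTN3 (proteinase 3) averaged 2.40 ± 0.598 CPM in FOXD2 cells and 1.09 ± 0.233 CPM in empty vector cells (log2 fold change 1.13, SE 0.37, edgeR adjusted p = 0.0077), a call lost with DESeq2 (adjusted p = 0.17), without empty vector replicate 1 (0.084) and without FOXD2 replicate 1 (0.16). Of the 15 proteases listed, 5 were tested, of which 4 rose and 0 fell (27.2% and 26.4% over all tested genes). With DESeq2, and with either of those libraries left out, 2 rose. The membrane serine protease gene ST14 (matriptase) averaged 292.1 ± 7.21 CPM in FOXD2 cells and 206.5 ± 3.61 CPM in empty vector cells (SD, n = 2 each; log2 fold change 0.50, edgeR adjusted p = 1.7e-10). PRSS8 (prostasin) averaged 52.7 ± 0.230 CPM in FOXD2 cells and 28.6 ± 2.48 CPM in empty vector cells (0.88, adjusted p = 2.4e-12). The cathepsin gene CTSB averaged 228.3 ± 10.1 CPM in FOXD2 cells and 204.6 ± 4.38 CPM in empty vector cells (0.16, adjusted p = 0.022; 0.11 with DESeq2, 0.11 and 0.24 without empty vector replicate 1 or 2, and 0.17 without FOXD2 replicate 1). CTSL did not pass (0.17, adjusted p = 0.076), except without FOXD2 replicate 2 (0.27, 0.0067) and with no scaling factors (0.23, 0.016). ST14, PRSS8, CTSB and CTSL were named after their values were seen.

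**Figure D3:**
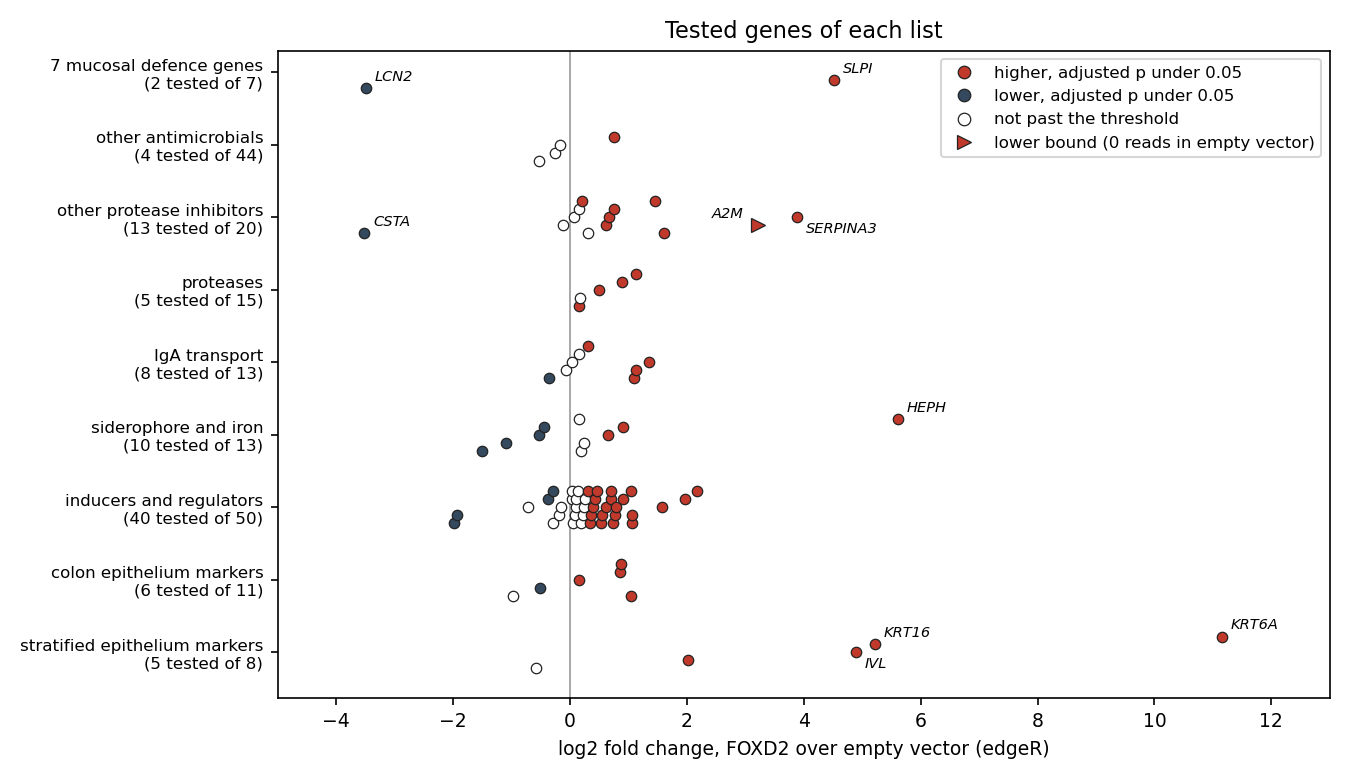
Log2 fold change of FOXD2 over empty vector (horizontal axis, edgeR) for the tested genes of each list, 1 symbol per gene. SLPI lies at 4.51 and LCN2 at -3.49, most other tested genes lie between -2 and 2, and the triangle marks A2M at its lower bound of 9.31-fold, set against 3 counts per empty vector library, where it had 0 reads.

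Genes that act with PIGR and LCN2 were then described. Of 13 genes for IgA and its transport, 8 were tested, of which 4 rose and 1 (the kinase gene YES1, -0.36) fell. Over all tested genes the shares were 27.2% and 26.4%. The list median was 0.23. The recycling endosome adaptor RAB11FIP1 averaged 185.1 ± 13.6 CPM in FOXD2 cells and 72.7 ± 1.12 CPM in empty vector cells (SD, n = 2 each; log2 fold change 1.35, SE 0.07, edgeR adjusted p = 6.4e-24). The GTPase gene RAB17, which acts in transcytosis, rose by 1.10 on the log2 scale (SE 0.11, adjusted p = 2.2e-12), and EGFR by 1.13 (SE 0.06, adjusted p = 3.2e-22). The J chain gene JCHAIN and IGHM, which belong to plasma cells, had no read. The sorting genes were thus expressed in cells where PIGR itself had 0 to 3 reads.

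Of 13 genes for the siderophore route and iron handling, 10 were tested, of which 3 rose and 4 fell (median log2 fold change 0.18). Over all tested genes the shares were 27.2% and 26.4%. With no scaling factors 5 rose. SLC22A17, described as a cell surface receptor for LCN2, did not pass, at 0.24 on the log2 scale (SE 0.23, edgeR adjusted p = 0.39). HEPH, the ferroxidase hephaestin, had 105 and 110 counts in the FOXD2 libraries, against 1 and 3 in the empty vector libraries (log2 fold change 5.61, SE 0.42, adjusted p = 5.2e-17). FTH1, the ferritin heavy chain, averaged 915.8 ± 96.1 CPM in FOXD2 cells and 1963 ± 172.6 CPM in empty vector cells (log2 fold change -1.10, SE 0.08, adjusted p = 1.3e-07). FTL, the light chain, went the opposite way with 1983 ± 310.6 CPM in FOXD2 cells and 1052 ± 74.8 CPM in empty vector cells (0.91, SE 0.15, adjusted p = 0.021). FTL was named after its value was seen, and both ferritin genes have many processed pseudogenes, so their counts are uncertain. The iron exporter SLC40A1 fell by 1.51 on the log2 scale (SE 0.50, adjusted p = 0.0091), with 6 and 7 counts in the FOXD2 libraries, against 23 and 13 in the empty vector libraries. That call ended with DESeq2 (adjusted p = 0.19), without empty vector replicate 1 (0.32), without FOXD2 replicate 1 (0.087) and with limma on log2(TPM + 1) (0.12).

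Known inducers and regulators of these genes were then compared. Of 50 listed, 40 were tested, of which 21 rose and 4 fell (27.2% and 26.4% over all tested genes). Their median log2 fold change was 0.32. This list too was chosen with earlier results of these data known. CEBPD, a C/EBP factor of the acute phase response, averaged 20.5 ± 0.232 CPM in FOXD2 cells and 6.86 ± 0.601 CPM in empty vector cells (SD, n = 2 each; log2 fold change 1.57, SE 0.14, edgeR adjusted p = 4.8e-14). GRHL3, a grainyhead factor of surface epithelia, averaged 5.29 ± 0.425 CPM in FOXD2 cells and 1.18 ± 0.356 CPM in empty vector cells (2.17, SE 0.30, adjusted p = 1.6e-08). The IL-17 receptor subunit gene IL17RC rose by 1.04 (SE 0.15, adjusted p = 4.7e-08) and the flagellin receptor gene TLR5 by 1.97 (SE 0.31, adjusted p = 3.5e-07).

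The genes that fell were TLR6, PPARG, ELF3 and NFKB1. PPARG, a nuclear receptor of colon epithelium, had 10.4 and 11.5 CPM in the FOXD2 libraries, against 39.6 and 44.3 CPM in the empty vector libraries (log2 fold change -1.94, SE 0.11, edgeR adjusted p = 1.3e-21), and TLR6 had -1.99 (SE 0.27, adjusted p = 1.1e-08). ELF3 (-0.38) and NFKB1 (-0.29), named after their values were seen, fell with edgeR (adjusted p = 0.0054 and 0.0023), but not with limma on log2(TPM + 1) (0.37 and 0.18). NFKB1 also missed without empty vector replicate 2 (0.063), and ELF3 with no scaling factors (0.057). The other NF-kB subunit genes did not fall: RELB (1.05), NFKB2 (0.42) and RELA (0.34) rose (edgeR adjusted p = 1.0e-06, 1.8e-06 and 4.2e-05), and REL did not pass (0.04, adjusted p = 0.93), except as higher without empty vector replicate 1 (0.45, 0.038). 2 regulators known at the LCN2 promoter, NFKBIZ and CEBPB, were also named after their values were seen. NFKBIZ averaged 6.38 ± 0.840 CPM in FOXD2 cells and 3.91 ± 0.274 CPM in empty vector cells (log2 fold change 0.70, SE 0.21, adjusted p = 0.0048; 0.13 with DESeq2). Its call also ended without empty vector replicate 1 (0.053), without FOXD2 replicate 2 (0.071) and with limma on TPM. CEBPB did not pass (0.09, SE 0.08, adjusted p = 0.35). The secreted inducers IL1B and IL36G had 0 to 3 counts per library, TNF had none, and IL1A had 11 and 7 counts in the FOXD2 libraries, against 1 and 0 in the empty vector libraries.

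**Figure D4:**
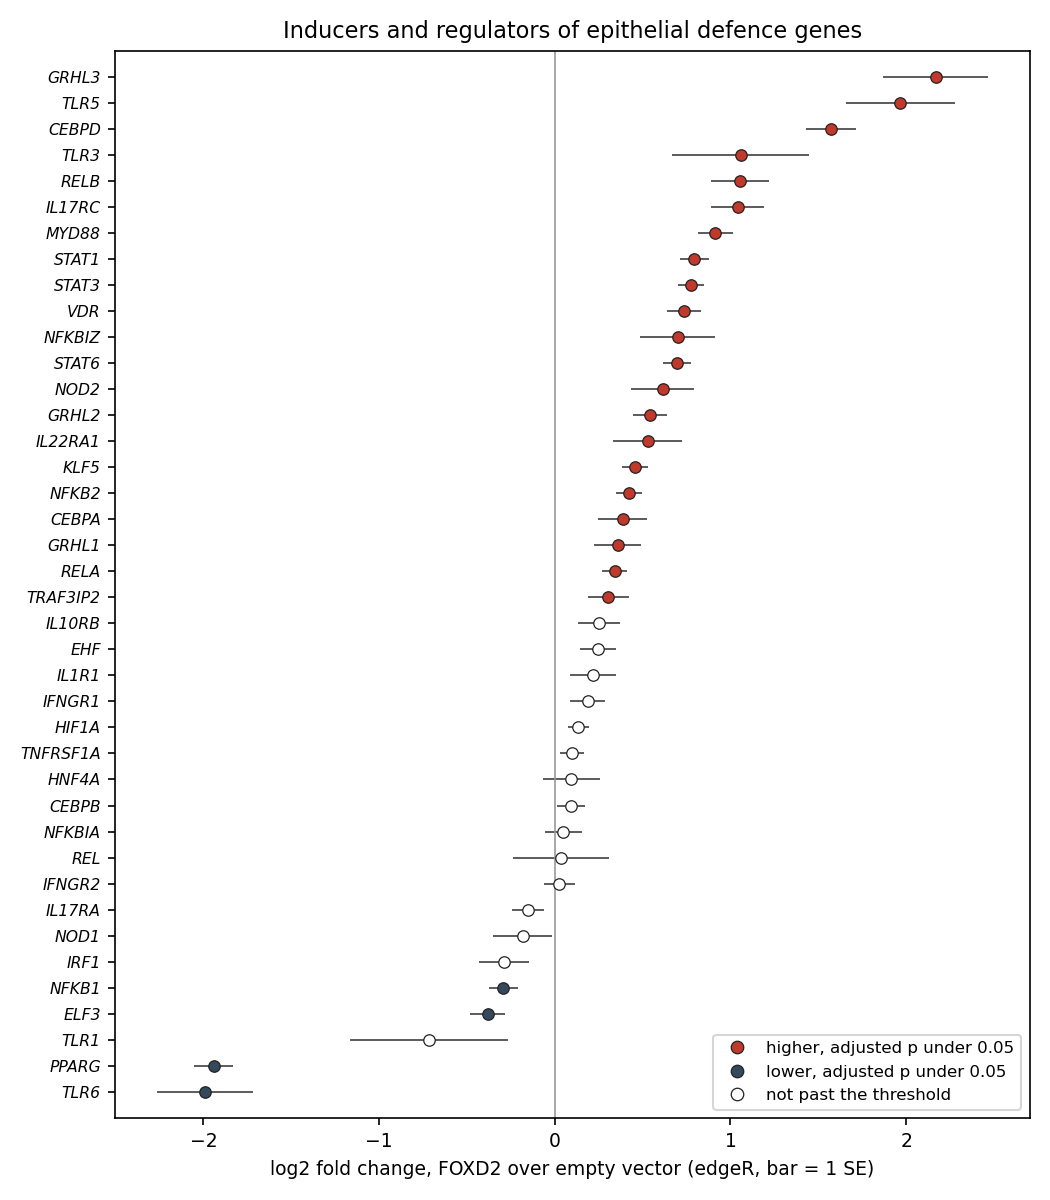
Log2 fold change of FOXD2 over empty vector (horizontal axis, edgeR) for the 40 tested inducers and regulators, 1 row per gene in order of value. Bars are 1 SE, derived from the test statistic. Of these genes 21 were higher, from TRAF3IP2 at 0.31 to GRHL3 at 2.17, and 4 were lower, with PPARG at -1.94 and TLR6 at -1.99.

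Markers of other cell types were set beside SLPI and LCN2, which neutrophils, airway cells and stratified epithelia also make. None of the 7 neutrophil, 7 macrophage, 6 Paneth cell and 6 airway secretory markers was tested. The neutrophil list summed to 0.128 and 0.137 CPM in FOXD2 cells and 0.143 and 0 CPM in empty vector cells, with ELANE, LTF, CAMP, CSF3R and FCGR3B at 0 in all libraries. The Paneth list summed to 0 and 0.205 CPM in FOXD2 cells and 0.143 and 0 CPM in empty vector cells, with DEFA5, DEFA6, REG3A and PRSS2 at 0. The airway list was between 0.265 and 0.358 CPM and the macrophage list between 0.0715 and 0.899 CPM in all libraries. Among macrophage markers, MARCO had 8 and 2 counts in the FOXD2 libraries, against 0 and 0, and CD14 had 3 and 0, against 1 and 5. With no filter on low counts, 1 macrophage marker rose. Of 7 plasma cell markers only SDC1, which epithelia also express, was tested, and it fell (-0.35, edgeR adjusted p = 6.9e-05). Of 6 goblet markers only FCGBP was tested, and it did not pass (-0.31, edgeR adjusted p = 0.20).

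Most tested markers of stratified epithelium were higher together with SLPI. Of 8, 5 were tested and 4 rose (27.2% over all tested genes), namely KRT6A, KRT16, KRT14 and IVL. These markers were also listed with earlier results of these data known. The remaining tested marker, KRT13, had 30 and 22 counts in the FOXD2 libraries, against 25 and 50 in the empty vector libraries, and did not pass (-0.57 on the log2 scale, edgeR adjusted p = 0.15), except as lower without empty vector replicate 1 (-0.95, 0.033). For the markers that rose, without empty vector replicate 2 the count was 2, since KRT14 and KRT6A then missed the threshold (edgeR adjusted p = 0.38 and 0.12). KRT6A also missed without empty vector replicate 1 (0.11), and KRT14 without either FOXD2 library (0.085 and 0.051). The list summed to 875.2 and 596.8 CPM in FOXD2 cells and 2.72 and 4.37 CPM in empty vector cells, almost all of it in FOXD2 cells from KRT6A, whose near-identical copies may share its reads. KRT16 had 101 and 64 counts in the FOXD2 libraries, against 3 and 1 in the empty vector libraries, and the envelope protein gene IVL had 22 and 16, against 0 and 1. The basal markers KRT5 (4 and 6 counts in the FOXD2 libraries, against 2 and 5) and TP63 (1 and 2, against 0 and 3) stayed at a few reads. SPRR1B, also untested, had 6 and 9 counts in the FOXD2 libraries, against 0 and 0 in the empty vector libraries. With no filter on low counts, 5 markers of the list rose. No marker of the list was at 0 in every library. The part of these genes in the rise of SLPI was not tested.

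The genes whose pattern over the 4 libraries was most like that of each tested member were found by the distance between log2 CPM values centred on the mean of each gene, over protein-coding tested genes. For SLPI they included the histone gene H4C15 (distance 0.22) and the membrane serine protease gene TMPRSS13 (0.24). TMPRSS13 had 73 and 72 counts in the FOXD2 libraries, against 1 and 2 in the empty vector libraries, and H4C15, one of several near-identical histone genes, had 35 and 42, against 0 and 0. For LCN2 they were KLRC2 (0.34), CCDC102B (0.53) and ARID5B (0.76), with 1 and 6, 0 and 3, and 45 and 61 counts in the FOXD2 libraries, against 29 and 42, 10 and 13, and 309 and 259 in the empty vector libraries. With 2 libraries per group, this distance mainly finds genes of similar fold change, and KLRC2 may share reads with its close paralogs. The lower level of CCDC102B did not pass with DESeq2 (adjusted p = 0.095) or without FOXD2 replicate 1 (0.077).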

How the data were processed

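RNA of 4 HCT116 libraries was analysed, 2 with FOXD2 and 2 with empty vector. Per the labels' protocols, TRIzol was used for extraction, followed by polyA selection and a directional NEBNext kit. The submitters' processing notes name RSEM 1.2.31, STAR 2.7.2b and GRCh38; the annotation release and strand setting are not given in the sources used here. The authors' tables give RSEM expected counts, TPM and, as other columns, gene lengths and the posterior SD of each count, per the file headers.

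Expected counts were rounded and tested with edgeR 4.0.16 in R 4.3.3 (TMM, filterByExpr, robust quasi-likelihood fit, both directions), with Benjamini-Hochberg adjustment over all 14470 tested genes; the code was tested on simulated counts. CPM uses TMM-scaled library sizes, with totals of 14231338 to 15535817. Alternatives used DESeq2 1.42.0, limma 3.58.1 (voom, or log2 of the deposited TPM plus 1 or 0.1), other scaling and filters, a replicate block and libraries left out singly. Intervals and limits cover counting error only, and a count of 0 allows up to 3 counts. Each SE given with an edgeR value is the absolute log2 fold change divided by the square root of the quasi-likelihood F statistic. For genes of few reads it can understate the error, and DESeq2 gave larger SEs for SLPI and LCN2. As separate cultures are not stated, p-values reflect only how these libraries vary, possibly for technical reasons. GENCODE 29 gave positions; LYZ and DEFB1 each overlap 1 opposite-strand gene, which had no reads.

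The members, lists and tests were chosen with earlier results of these data known. Named from each list were genes past the threshold with an absolute log2 fold change of at least 1, up to 4 per direction by p, or otherwise the 2 most abundant. Also named were the nearest tested gene on each side of a member and the 3 genes most like each tested member, of which 1 is not reported here; others are said to have been named after their values were seen, or stand in as untested or lowly expressed members of a list. Stratified markers KRT14, IVL, KRT16 and KRT6A and the colon marker KRT19 were named by this rule.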

Additional observations from a re-analysis of the deposited data

How the results depend on the processing

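SLPI was higher and LCN2 lower in FOXD2 cells, and both passed, under all 13 alternatives run. The log2 fold change of SLPI lay between 3.89 and 4.67 (largest adjusted p = 6.3e-06) and that of LCN2 between -7.17 and -1.55 (largest adjusted p = 0.017, DESeq2); FOXD2 lay between 6.67 and 7.49. With libraries left out singly, SLPI had 4.37 to 4.67, LCN2 -7.17 to -2.51, FOXD2 7.16 to 7.49, and 3146 to 3579 genes were higher and 3046 to 3650 lower, against 3929 and 3816 with all libraries; of the genes of the other lists, 39 to 44 were higher and 10 to 13 lower, against 49 and 12. DESeq2 gave 2414 genes higher in FOXD2 cells, and limma on log2(TPM + 1) and on log2(TPM + 0.1) gave 2442 and 2436 genes lower in FOXD2 cells; the cause was not tested. The replicate numbers are not stated to pair libraries, and the deviations of same-numbered libraries had a correlation of -0.099 across 14470 genes. With the replicate number as a block, SLPI had 4.52 and LCN2 -3.50, and 3680 genes were higher and 3494 lower; EPCAM and CTSB no longer passed (adjusted p = 0.084 and 0.082). Depth limits WFDC2, LYZ, PIGR, PI3 and DEFB1, which have no tested value under most alternatives.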
